A study of Mus musculus with 4 samples.

Results

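The IQGAP proteins and the coronins are 2 families of actin regulators, of which 8 genes were examined in mouse embryonic fibroblasts (MEFs) with and without inositol hexakisphosphate kinase 1, the product of Ip6k1. The genes were Iqgap1, Iqgap2, Iqgap3, Coro1a, Coro1b, Coro1c, Coro2a and Coro2b. Both families were chosen by measured values of this comparison, the signal of Iqgap2 and Coro2a being higher in both Ip6k1-/- lines than in either control line, so the levels of these 2 genes are given as a description and without a test. The members are the 16 probes that carry these gene names, of 41174 probes on the array, and all 8 genes have at least 1 probe. Of the 16 probes, 8 were well above background on all 4 arrays, 1 on 3 arrays, 2 on 2 arrays, 1 on 1 array and 4 on none.

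The study hybridized RNA of 4 MEF lines to a whole-genome Agilent array with 1 dye, Cy3, and compared 2 Ip6k1+/+ lines with 2 Ip6k1-/- lines. Each line came from its own embryo at embryonic day 14. All embryos were litter mates, from a heterozygous mother mated with a heterozygous father. Every line, controls included, had been immortalised with the large T antigen of the SV40 virus and kept frozen, and was growing exponentially before it was trypsinised. A genotype is therefore represented by 2 immortalised lines, in which differences between lines and differences between genotypes are separated by 2 replicates only.

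IQGAP proteins are large scaffold proteins that bind the active forms of the small GTPases Cdc42 and Rac1, calmodulin and actin filaments, and so link signalling at the cell edge to the cytoskeleton. Coronins bind actin filaments through a propeller of WD repeats. Type I coronins (Coro1a, Coro1b, Coro1c) act on the Arp2/3 complex, which nucleates branched filaments, and on cofilin, which takes filaments apart, while the type II coronins Coro2a and Coro2b are less well understood. In tissues, Iqgap1 is widely expressed, Iqgap2 is best known from liver, Iqgap3 from dividing cells, Coro1a from blood cells and Coro2b from the nervous system.

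The 60-base probes that carry the results on Iqgap2 are shown first, because the Iqgap2 probes were not all alike in their signal. Positions are those of the files, on build mm9, and all 3 sequences lie on the minus strand of chromosome 13. Probe A_52_P65496 was placed at chr13:96398966-96399958 and starts at base 4703 of the transcript it was designed on, and A_52_P65494 was placed at chr13:96398055-96398940 and starts at base 4788 of the same transcript. Their spans of 993 and 886 bases for 60 bases of probe mean that each crosses an intron. Both gave a signal in the Ip6k1-/- lines. Probe A_52_P474294, at chr13:96452116-96452175, starts at base 2239 of that transcript and was in no line well above background. Each of the 3 has at least 1 forward reading frame without a stop codon. No base is capitalised in them.
Iqgap2 A_52_P65496: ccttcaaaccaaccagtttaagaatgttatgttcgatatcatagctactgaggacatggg
Iqgap2 A_52_P65494: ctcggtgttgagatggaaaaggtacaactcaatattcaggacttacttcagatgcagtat
Iqgap2 A_52_P474294: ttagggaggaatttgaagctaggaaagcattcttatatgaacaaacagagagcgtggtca

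For the coronins, a probe of Coro2a and a probe of Coro1a are shown side by side. Coro2a probe A_52_P116120 lies at chr4:46556251-46556310 and Coro1a probe A_51_P300281 at chr7:133844338-133844397, both on the minus strand. Set against each other without gaps, at the offset with the most identical bases, they overlap over 56 bases. Of these 29 (51.8%) are identical, and the capitals mark these bases. A pair from different families, Iqgap2 A_52_P474294 and Coro1a A_51_P300277, reached 30 of 59 bases (50.8%). The share therefore does not tell paralogs from unrelated genes.
Coro2a A_52_P116120: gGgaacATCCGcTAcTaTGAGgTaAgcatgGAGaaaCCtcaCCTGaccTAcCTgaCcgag
Coro1a A_51_P300281: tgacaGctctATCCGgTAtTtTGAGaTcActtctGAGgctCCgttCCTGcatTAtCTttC
Among the 109 pairs of probes of different members, the longest run of identical bases was 10.

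Signals are given as log2 of the processed signal minus the 75th percentile of the same array, so that 0 is the 75th percentile of that array. Levels of different probes cannot be compared on this scale, and only the 4 lines are compared within a probe. The 4 arrays had a 75th percentile of 610 to 747, and 52.0% to 55.5% of their probes were well above background. A probe was tested with limma and Benjamini-Hochberg adjustment if both arrays of a genotype had it well above background, which left 21572 probes of 14334 gene names. No probe was higher in Ip6k1-/- MEFs at an adjusted p of at most 0.05 (0% of the probes tested) and 3 were lower (0.0139%), while 721 had an unadjusted p under 0.05. By the 2-fold rule (a mean difference of at least 1 in log2, in which both Ip6k1-/- lines lie 0.9 or more from the control mean), 229 probes were higher (1.06%) and 404 lower (1.87%). With another background correction (normexp) these counts were 55 and 190. For 18.8% of the probes tested both Ip6k1-/- lines lay above both Ip6k1+/+ lines, and for 12.6% both lay below. The targeted gene matched the labels. Ip6k1 probe A_51_P213766 read 0.35 and 0.39 in the controls and fell to background in both Ip6k1-/- lines (limma adjusted p = 0.0355). Its control mean was 34.0-fold above the lowest signals well above background on the Ip6k1-/- arrays, which is not a strict lower bound. Ip6k1 probe A_52_P413035 fell to background likewise, from 0.22 and 0.41 in the controls (limma adjusted p = 0.0355). Both probes of the targeted gene are thus among the 3 called lower. Ip6k1 probe A_51_P103718, nearer the 3′ end, stayed well above background in every line with a difference of -4.13 (limma adjusted p = 0.367).

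All 12 fibroblast markers examined were well above background on at least 3 arrays, Col1a1, Col1a2, Col3a1, Dcn, Pdgfra, Pdgfrb, Thy1, Fn1, Postn, Twist1 and Prrx1 on all 4 and Lum on 3. None passed the limma threshold, and 3 had an unadjusted p under 0.05. In 5 of them both Ip6k1-/- lines were lower than either control, beside 13.2% of all genes tested. Dcn and Pdgfrb were lower by the 2-fold rule. The mean of another 5 was higher in Ip6k1-/- MEFs, most for Thy1 (difference 1.03), whose genotypes overlapped. Col1a1 and Col1a2 were saturated on all 4 arrays. The log2 summed signal of the other 10 was 7.60 and 8.11 in Ip6k1+/+ and 7.12 and 7.20 in Ip6k1-/- MEFs, and the part of this shift in the results below was not tested. Among markers of other cells, Krt18 and Krt19 (epithelial), Tubb3 (neuronal), Kdr (endothelial), Actc1 and Acta1 (muscle) were well above background on all 4 arrays. Krt5, Krt8, Epcam, Stmn2, Elavl4, Syt1 and Tnnt3 were so on 1 to 3 arrays, and Pecam1, Cdh5, Cdh1, Cldn4, Myod1 and Myog on none. The log2 summed signal of the epithelial list ranged from 2.14 to 2.18 in Ip6k1+/+ and from 2.09 to 2.74 in Ip6k1-/- MEFs. That of the endothelial list ranged from -3.04 to -2.78 and from -2.40 to -1.32, and that of the muscle list from 4.90 to 5.51 and from 4.74 to 4.81. Of the endothelial genes 6 were on no array well above background. Kdr alone was, at -3.66 and -3.99 in Ip6k1+/+ and -2.94 and -1.59 in Ip6k1-/- MEFs (limma adjusted p = 0.993).

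Of the 16 member probes, 11 passed the filter and every gene kept at least 1 of them. Both Ip6k1-/- lines lay above both Ip6k1+/+ lines on 4 of these probes and below them on 1. The 2-fold rule was passed upwards by 3 probes, the pair of Iqgap2 and 1 of Coro2a, and downwards by none. These 3 are the probes for which the families were chosen, so the counts describe the choice. The plot of all member probes by line shows the 5 probes that did not pass as mostly open symbols.

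**Figure D1:**
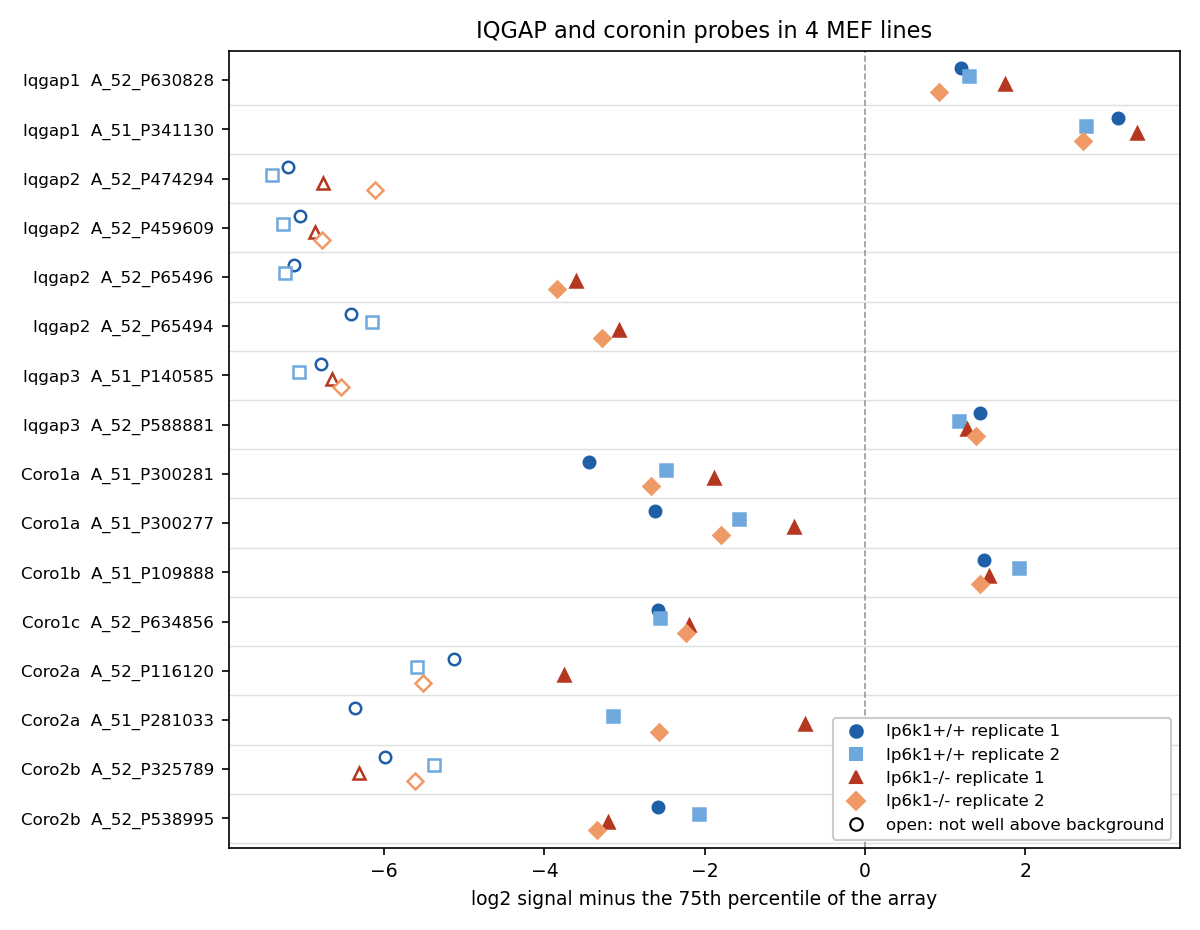
Log2 signal minus the 75th percentile of the array (x axis) for the 16 probes of the 8 genes in each of the 4 lines, with filled symbols for a signal well above background and open symbols for one that was not. On Iqgap2 probe A_52_P65496 the Ip6k1-/- lines sit at -3.61 and -3.84 and the Ip6k1+/+ lines at -7.12 and -7.24, while on both Iqgap1 probes the symbols of the genotypes are mixed.

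Among the IQGAP genes, Iqgap2 had a detectable signal in Ip6k1-/- MEFs only. On probe A_52_P65496 the Ip6k1-/- lines read -3.61 and -3.84, and the Ip6k1+/+ lines read -7.12 and -7.24, neither of which was well above background. The Ip6k1+/+ values were near those of other undetected probes, such as the leukocyte gene Ptprc at -7.19 and -7.40 in the same lines. The measured means were -3.72 ± 0.16 and -7.18 ± 0.09 (SD, n = 2 lines each). The second SD therefore describes background rather than agreement between lines. The Ip6k1+/+ lines gave no level that can enter a fold. The Ip6k1-/- mean was therefore set against the lowest signal that was well above background on each Ip6k1+/+ array, which gave 2.76-fold. This is not a strict lower bound, since probes above that signal could also fail to be well above background. Csf1r did so at -4.83 in Ip6k1+/+ replicate 1, where the lowest was -5.20.

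Probe A_52_P65494, which begins 25 bases past the end of the first on the transcript, gave the same order. It read -3.07 and -3.28 without Ip6k1 and -6.41 and -6.15 in the controls, the latter not well above background. The groups did not overlap, and Ip6k1-/- MEFs exceeded the same lowest signals of the Ip6k1+/+ arrays 4.02-fold. The 2 probes read neighbouring bases of 1 transcript and are not independent measurements. With normexp background correction, which draws dim signals together, the measured differences of 3.46 and 3.10 became 0.70 and 1.05.

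The other 2 Iqgap2 probes gave no signal well above background in any line. Probe A_52_P474294, whose start lies 2464 bases before that of A_52_P65496 on the same transcript, read -7.19 and -7.40 in Ip6k1+/+ and -6.76 and -6.12 in Ip6k1-/- MEFs. Probe A_52_P459609 (chr13:96425274-96425333), designed on another cDNA clone, read -7.05, -7.27, -6.86 and -6.77 in the same order. No fold is given for either. The higher Iqgap2 signal thus rested on the probes near the 3′ end of those placed on this transcript, and the labelling was primed by oligo-dT. Whether probe position had a part in the absence of signal was not tested.

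Iqgap1, the widely expressed paralog, did not differ between genotypes beyond the spread between lines. On probe A_52_P630828 (chr7:87858730-87858789) the Ip6k1+/+ lines read 1.19 and 1.30 and the Ip6k1-/- lines 1.74 and 0.93. One Ip6k1-/- line lay above both controls and the other below both. The difference was 0.09 (SE 0.33, 95% interval -0.78 to 0.96, limma adjusted p = 0.993).

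The other Iqgap1 probe, A_51_P341130 (chr7:87857845-87857904), starts 885 bases further along the transcript. It read 3.15 and 2.75 in Ip6k1+/+ and 3.38 and 2.72 in Ip6k1-/- MEFs, so that the genotypes again overlapped and Ip6k1-/- replicate 1 was again the highest line. The difference was 0.10 (SE 0.31, 95% interval -0.70 to 0.91, limma adjusted p = 0.993). The mean difference of both probes turned negative when Ip6k1-/- replicate 1 was left out, to -0.32 and -0.23.

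Iqgap3, the paralog of dividing cells, differed least of the 3. Probe A_52_P588881 (chr3:87924765-87924824) read 1.43 and 1.17 in Ip6k1+/+ and 1.27 and 1.38 in Ip6k1-/- MEFs. Both knockout lines fell between the controls. The difference was 0.03 (SE 0.22, 95% interval -0.55 to 0.60, limma adjusted p = 0.994), and its sign changed with the line left out. The log2 summed signal of 10 proliferation genes, all of them well above background in every line, was 7.73 and 7.28 in Ip6k1+/+ and 7.67 and 7.82 in Ip6k1-/- MEFs. The other Iqgap3 probe, A_51_P140585, was on no array well above background.

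Because Iqgap2 is best known from liver, hepatocyte markers were examined beside it. Of 7 on the array, Alb, Ttr, Apoa1, Hnf4a and Fgb were not well above background in any line, and Afp and Trf were so on 1 array each. Their log2 summed signal ranged from -3.36 to -3.27 in Ip6k1+/+ and from -3.28 to -3.08 in Ip6k1-/- MEFs. Most of each sum came from signals not well above background, so the sums do not compare hepatocyte RNA between genotypes.

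**Figure D2:**
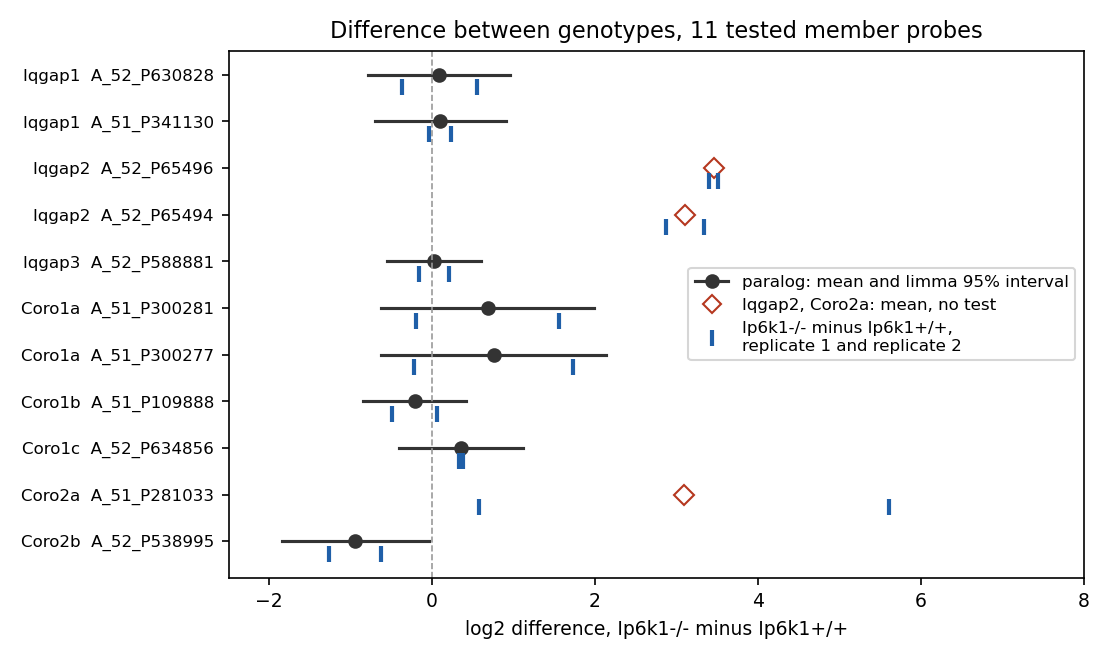
Log2 difference, Ip6k1-/- minus Ip6k1+/+ (x axis), of the 11 member probes that were tested, with the limma 95% interval for the paralogs (filled circles), the mean alone for Iqgap2 and Coro2a (open diamonds) and ticks for the difference between lines of the same replicate number. The interval of Coro2b, from -1.85 to -0.04, lies below 0, those of the other paralog probes include 0, and the ticks of Coro2a are 5.61 and 0.58.

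Among the coronins, Coro2a had the widest spread between lines. On probe A_51_P281033 (chr4:46550476-46550535) the Ip6k1-/- lines read -0.75 and -2.57, and the Ip6k1+/+ lines read -6.36, not well above background, and -3.15. Both Ip6k1-/- lines lay above both controls, but the distance from the lower Ip6k1-/- line to the higher control was only 0.58, while the controls were 3.21 apart. The measured means were -1.66 ± 1.28 and -4.75 ± 2.27 (SD, n = 2 lines each), a difference of 3.09.

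The size of the Coro2a difference was thus set by single lines. It was 1.49 without Ip6k1+/+ replicate 1, the control that was not well above background, 4.70 without the other control, 2.19 without Ip6k1-/- replicate 1 and 4.00 without Ip6k1-/- replicate 2. With normexp background correction it was 1.44. No fold against the lowest signal well above background is given, since 1 control was measured.

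The other Coro2a probe, A_52_P116120, whose sequence is given above, starts 2168 bases nearer the 5′ end of the transcript. It was well above background only in Ip6k1-/- replicate 1, at -3.76, and read -5.13 and -5.59 in Ip6k1+/+ MEFs and -5.52 in Ip6k1-/- replicate 2. The line in which it was detected was the one with the highest Coro2a signal on the other probe. It did not pass the filter and was not tested. As for Iqgap2, the probe nearer the 3′ end was the one detected in more lines, which the plot of probes by their place in the transcript shows.

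**Figure D3:**
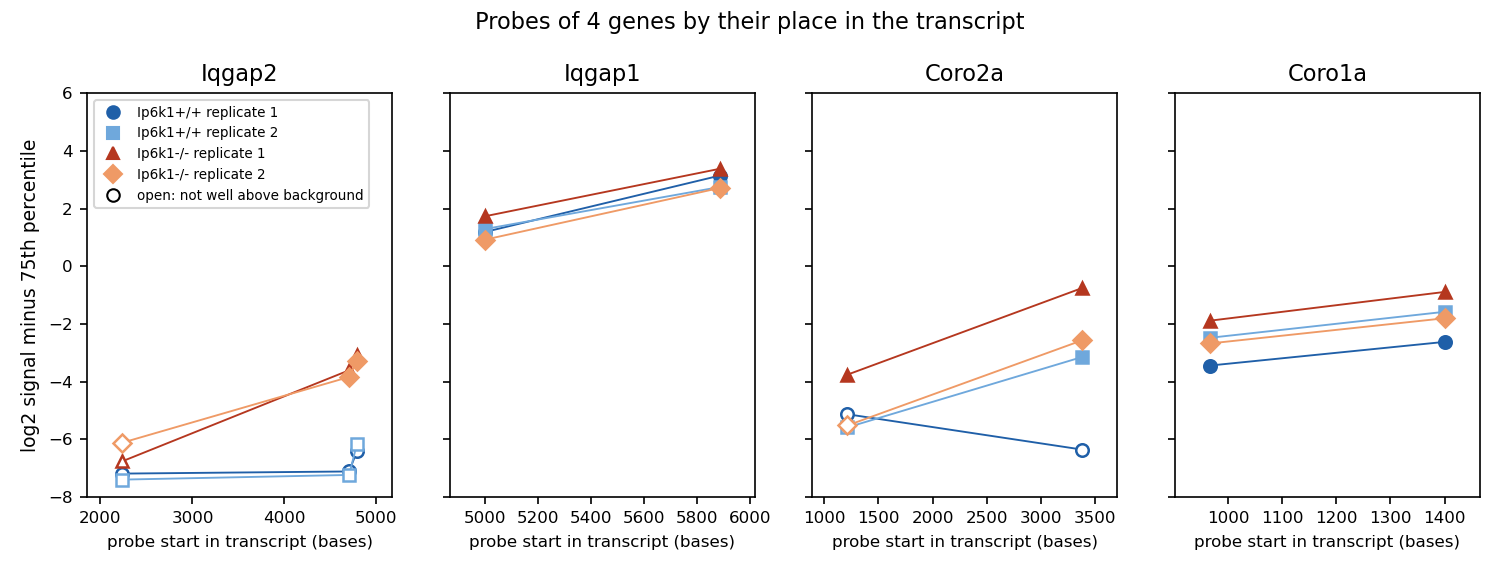
Log2 signal minus the 75th percentile of the array (y axis) against the start of each probe in its transcript, in bases (x axis), for Iqgap2, Iqgap1, Coro2a and Coro1a, with a coloured line that joins the probes of 1 MEF line and open symbols for a signal not well above background. Signals of different probes are not on a common scale, and a reader should compare the order of the lines within each probe, where Ip6k1-/- replicate 1 is the highest on all probes of Iqgap1, Coro2a and Coro1a.

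Coro2b, the type II paralog of Coro2a, went the other way. Probe A_52_P538995 (chr9:62267636-62267695) read -2.59 and -2.08 in Ip6k1+/+ and -3.21 and -3.34 in Ip6k1-/- MEFs. The genotypes did not overlap. The difference was -0.94 (SE 0.34, 95% interval -1.85 to -0.04) with an unadjusted p of 0.0434 by limma, which did not pass the adjustment over all probes (limma adjusted p = 0.993). It did not pass the 2-fold rule either, and was -0.48 with normexp background correction.

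The second Coro2b probe, A_52_P325789, was in no line well above background. Of 7 neuronal markers on the array, Snap25, Gap43 and Nefl were not well above background in any line, and the log2 summed signal of the list was 0.12 and 1.54 in Ip6k1+/+ and 0.84 and 2.02 in Ip6k1-/- MEFs, an order that followed replicate number.

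The type I coronins gave no difference past the threshold. Coro1a, the coronin of blood cells, was read by a pair of probes that ordered the lines alike. Probe A_51_P300281 read -3.44 and -2.48 in Ip6k1+/+ and -1.89 and -2.68 in Ip6k1-/- MEFs. Ip6k1+/+ replicate 1 was the lowest line and Ip6k1-/- replicate 1 the highest, and the other 2 lines lay in reverse order between them. The difference was 0.68 (SE 0.50, 95% interval -0.63 to 1.99, limma adjusted p = 0.993). It was 0.20 without Ip6k1+/+ replicate 1, 0.29 without Ip6k1-/- replicate 1, 1.16 without Ip6k1+/+ replicate 2 and 1.08 without Ip6k1-/- replicate 2.

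On the other Coro1a probe, A_51_P300277 (chr7:133843425-133843484), the lines read -2.62 and -1.58 in Ip6k1+/+ and -0.89 and -1.80 in Ip6k1-/- MEFs, for a difference of 0.75 (SE 0.53, 95% interval -0.63 to 2.14, limma adjusted p = 0.993), which ran from 0.23 to 1.28 with the same lines left out. The lowest and the highest line of Coro1a were thus also the lowest and the highest line of Coro2a on A_51_P281033. Leukocyte markers were examined beside Coro1a. Of 9, Ptprc, Csf1r, Emr1, Itgam, Laptm5, Tyrobp and Cd52 were not well above background in any line, and Fcer1g and Cd3e were so on all 4 arrays. Their log2 summed signal ranged from -2.10 to -1.88 in Ip6k1+/+ and from -2.06 to -1.82 in Ip6k1-/- MEFs. In RNA of whole cultures, more expressing cells and more RNA per cell cannot be told apart.

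Coro1b, a widely expressed coronin that localises to the leading edge, read 1.49 and 1.92 in Ip6k1+/+ and 1.55 and 1.43 in Ip6k1-/- MEFs on probe A_51_P109888 (chr19:4153288-4153347). Only Ip6k1+/+ replicate 2 stood higher than the rest. The difference was -0.22 (SE 0.24, 95% interval -0.85 to 0.42, limma adjusted p = 0.993).

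Coro1c, the other widely expressed type I coronin, had the tightest replicates of the members. Probe A_52_P634856 (chr5:114293803-114293862) read -2.58 and -2.56 in Ip6k1+/+ and -2.20 and -2.23 in Ip6k1-/- MEFs. The Ip6k1-/- lines lay above both controls by more than the distance within either genotype. The difference was 0.35 (SE 0.29, 95% interval -0.41 to 1.12, limma adjusted p = 0.993), the standard error being drawn by limma towards that of probes of like signal.

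Over the 8 tested probes of the 6 genes other than Iqgap2 and Coro2a, the mean was higher in Ip6k1-/- MEFs on 6 and lower on 2, with a median difference of 0.09 beside 0.05 over all probes tested. The genotypes did not overlap on 2 of the 8, Coro1c above and Coro2b below, beside the 18.8% and 12.6% of all probes given above. None passed the limma threshold, and 1, that of Coro2b, had an unadjusted p under 0.05. The intervals bound the paralogs rather than show them to be equal between genotypes. For Iqgap3 the 95% interval ends at a rise of 0.60 in log2, whereas for Coro1a a rise of up to 2.14 lies within it.

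The 2 remaining coronins were Coro6, not well above background in any line, and Coro7, a coronin of the Golgi apparatus. Its probes differed in direction. On A_52_P287419 the difference was 0.58 (SE 0.34, limma adjusted p = 0.993), with both Ip6k1-/- lines above both controls, and on A_51_P323878 it was -0.15 (SE 0.21, limma adjusted p = 0.993), with both below.

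Genes that work with IQGAP proteins and coronins on actin were taken from 4 lists, each gene by its tested probe with the highest mean signal. None of the 53 genes tested passed the limma threshold, and 1, the formin Daam2, which passed the filter through the controls alone, had an unadjusted p under 0.05. Daam2 was also the only gene of the lists to pass the 2-fold rule, downwards. By gene rather than probe, 153 of 14334 genes were higher and 299 lower by this rule, and the median difference over all of them was 0.04. Over all genes, 55% had a higher mean in Ip6k1-/- MEFs, 18.1% had both Ip6k1-/- lines above both controls and 13.2% had both below, and the counts of the lists stand beside these shares.

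**Figure D4:**
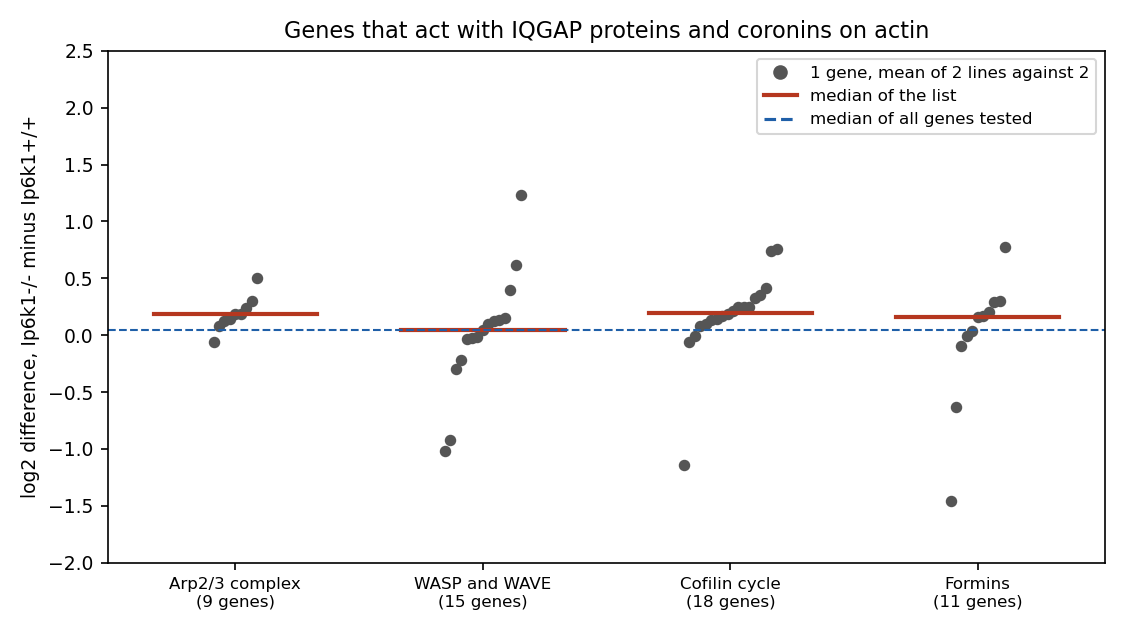
Log2 difference, Ip6k1-/- minus Ip6k1+/+ (y axis), of each tested gene in 4 lists of actin regulators (x axis), with the median of each list (solid line) and of all 14334 genes tested (dashed line). List medians run from 0.04 to 0.20, and the lowest point is the measured value of Daam2, whose Ip6k1-/- lines were not well above background.

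The Arp2/3 complex, a target of type I coronins, held 9 tested genes, with 8 means above 0 and a median of 0.18. For 5 genes both Ip6k1-/- lines lay above both controls, and for none below. With each array left out in turn the median ran from 0.15 to 0.24. The subunit Arpc1b was saturated on all 4 arrays. The subunit Actr2 read 2.89 and 2.62 in Ip6k1+/+ and 3.30 and 3.21 in Ip6k1-/- MEFs, a difference of 0.50 (SE 0.20, limma adjusted p = 0.993). Arpc5 differed by 0.30 (SE 0.19, limma adjusted p = 0.993). No member of the complex passed the threshold.

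The cofilin cycle held 18 tested genes, with 15 means above 0 and a median of 0.20, which ran from 0.06 (without Ip6k1+/+ replicate 2) to 0.25 with 1 array left out. The genotypes did not overlap for 2 of them, both higher in Ip6k1-/- MEFs. The cofilin phosphatase Ssh3 differed by 0.74 (SE 0.67, limma adjusted p = 0.993), with the controls 1.52 apart, and the muscle-type cofilin Cfl2 by 0.42 (SE 0.37, limma adjusted p = 0.993).

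The WASP and WAVE factors, which activate the Arp2/3 complex, held 15 tested genes of 18 on the array with a median of 0.04, with 2 genes above both controls and 2 below. The median ran from -0.05 (without Ip6k1-/- replicate 2) to 0.10 (without Ip6k1-/- replicate 1) with 1 array left out. Abi3 differed by 1.23 (SE 0.57, limma adjusted p = 0.993), its Ip6k1-/- lines reading -2.07 and -3.50 against -3.81 and -4.21, so that the second was too near the controls for the 2-fold rule. Wasf1 differed by 0.62 (SE 0.44, limma adjusted p = 0.993).

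The formins, which nucleate unbranched filaments, held 11 tested genes with a median of 0.16, which was 0.36 without Ip6k1+/+ replicate 1, 0.04 without Ip6k1+/+ replicate 2 and -0.07 without Ip6k1-/- replicate 1. Fhod3 differed by 0.78 (SE 0.38, limma adjusted p = 0.993) and Diaph2 by 0.30 (SE 0.34, limma adjusted p = 0.993). Daam2 read -3.84 and -3.42 in Ip6k1+/+ and -4.80 and -5.37 in Ip6k1-/- MEFs, where it was not well above background. The Ip6k1+/+ mean was 2.12-fold above the lowest signals well above background on the Ip6k1-/- arrays (limma adjusted p = 0.993). This is not a strict lower bound. Wipf3 was not well above background at -4.64 in Ip6k1-/- replicate 1, where the lowest was -4.75. Daam2 is named because it alone passed the 2-fold rule.

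The probes whose pattern over the 4 arrays was most like that of Iqgap2 and Coro2a were found by the root mean square distance between profiles centred on their own mean. For Iqgap2 A_52_P65494 these were NAP037944-1 (a name of the array design, on chromosome 16) at a distance of 0.09, Paip1 at 0.30 and Tm6sf1 at 0.35. Paip1 lies on chromosome 13, as Iqgap2 does, and Tm6sf1 on chromosome 7. For A_52_P65496 the same 3 names came out, at 0.31, 0.37 and 0.37. NAP037944-1 read -6.00 and -5.58 in Ip6k1+/+ MEFs and Tm6sf1 probe A_52_P237948 read -7.25 and -7.47, none well above background. These probes passed the filter through the Ip6k1-/- lines alone, as Iqgap2 did. Their closeness thus rests in part on control values that were not detected. Other probes of these genes shared the pattern in part. Paip1 probe A_51_P470989 read -0.95 and -1.36 in Ip6k1+/+ and 1.58 and 1.64 in Ip6k1-/- MEFs, and A_52_P212284 read -2.59, -2.37, -0.74 and -0.85 in the same order. Paip1 probe A_52_P159060 read -0.46, -0.15, -0.63 and -0.08, with the genotypes overlapping, and the second Tm6sf1 probe was not well above background.

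For Coro2a A_51_P281033 the nearest were Hs3st3a1 at 0.42, Usp53 at 0.72 and Glipr1 at 0.79. Hs3st3a1 read -7.00, not well above background, and -3.44 in Ip6k1+/+ and -1.27 and -3.97 in Ip6k1-/- MEFs, so that it shared the lowest and the highest line with Coro2a while its middle lines lay in reverse order. Another Usp53 probe, A_52_P640386, was well above background on all 4 arrays. It read -3.23 and -2.26 in Ip6k1+/+ and -2.21 and -2.76 in Ip6k1-/- MEFs, with the genotypes overlapping. Usp53 probes A_51_P341852 and A_52_P569327 were on no array well above background. With 4 arrays, such likeness is a description of these lines.

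Probes within 500 kb of the Iqgap2 and Coro2a probes on the mm9 map were listed by position, after the values of both genes had been seen. Near Iqgap2, 3 of 10 probes of other genes were tested, and none passed the 2-fold rule or the limma threshold. F2r, the nearest tested gene, which encodes a thrombin receptor, read 3.59 and 4.82 in Ip6k1+/+ and 2.92 and 4.93 in Ip6k1-/- MEFs. Near Coro2a, 13 of 31 probes were tested and again none passed. Trim14, the nearest, read -5.44, not well above background, and -4.56 in Ip6k1+/+ and -4.10 and -4.24 in Ip6k1-/- MEFs. Tbc1d2 probe A_52_P218765, on the other side of Coro2a, read 0.46, 0.38, 2.32 and 0.57 in the same order and stood out in Ip6k1-/- replicate 1 only, the line with the highest Coro2a signal.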

How the data were processed

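RNA of 2 Ip6k1+/+ and 2 Ip6k1-/- MEF lines was hybridized to 1 single-colour Agilent array each, all on 1 slide. The authors deposited the spot intensity extracted with Feature Extraction 10.5.1.1, background-subtracted and on a linear scale, with flags, and, as a second table, log2 values shifted to the 75th percentile of each array with GeneSpring. Here log2 of the processed signal minus the 75th percentile of each array was used, without outlier spots and averaged per probe. Differences are compressed at saturated spots, and at dim spots their size depends on the background correction. No member spot was saturated. Probes well above background on both arrays of a genotype were tested with limma 3.58.1 (lmFit and eBayes with a variance trend, R 4.3.3), tested on simulated data. Members and lists, and the tests, were chosen with earlier results of these data known. Named were all members, Coro6, Coro7, Ip6k1, the 2 genes of each actin list that differed most among those above background on all arrays, the 3 nearest profiles, and detected markers (fibroblast, leukocyte, hepatocyte, epithelial, neuronal, endothelial, muscle, proliferation). Alternatives were quantile and median normalization, normexp (offset 50), other filters, the deposited log2 table and outlier spots kept. Further ones were no variance trend, a replicate block, each array left out in turn and the t-test that the methods name for 2 groups. Precision is limited by the number of arrays. Gene models of mm9 were not used here. Of the lists set out for these genes, 1 list of partners and 1 marker are not reported here.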

Additional observations from a re-analysis of the deposited data

How the results depend on the processing

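The differences of Iqgap2 and Coro2a kept their sign under the alternatives that gave them a value, and so did those of Coro1a, Coro1b, Coro1c, Coro2b and Coro7, none of which passed the limma threshold in them (lowest adjusted p = 0.456). Where the genotypes did not overlap (tested probes of Iqgap2, Coro2a, Coro1c, Coro2b and Coro7), leaving out 1 array could not change the sign. The replicate block leaves every mean difference as it was. The signs kept in those fits therefore add no support. The t-test and the fit without a variance trend were counted over all probes only. Without Ip6k1+/+ replicate 2 the Coro1b difference was -0.0011 and those of Coro7 were 0.30 and -0.05. With normexp the Iqgap2 differences were 0.70 and 1.05, no probe was called lower by limma, the 2-fold rule gave 55 higher and 190 lower probes, and 0 actin partner genes passed it downwards. Iqgap1 A_52_P630828 turned to -0.32 without Ip6k1-/- replicate 1, Iqgap1 A_51_P341130 to -0.10 without Ip6k1+/+ replicate 2 and to -0.23 without Ip6k1-/- replicate 1, and Iqgap3 to -0.10 without Ip6k1+/+ replicate 2 and to -0.03 without Ip6k1-/- replicate 2, and the cause was not tested. The same fits ran up to 0.49, 0.44 and 0.15 for these 3 probes. The count of 3 probes lower by limma was 0 with quantile normalization, 1 without the filter, 1 with probes well above background on all 4 arrays only, and 0 when any array was left out. The 2-fold counts were 404 and 949 without the filter, more probes being tested, and 122 and 241 with the stricter filter, which left out both Iqgap2 probes and that of Coro2a and gave 0 actin partner genes lower. Leaving out 1 array each gave 269 to 812 higher and 448 to 1337 lower probes, and 1 to 2 actin partner genes higher and 1 to 3 lower. The paper names a t-test for comparisons of 2 groups in general, and gives its array results as fold changes. On the array this t-test gave 452 higher and 397 lower probes at an unadjusted p of at most 0.05. After Benjamini-Hochberg adjustment it gave 0 in either direction. With the replicate number as a block, 0 probes were higher and 3 lower, the same 3 as without it, 1765 probes had an unadjusted p under 0.05, and the limma adjusted p of Coro2b was 0.586. The deviations of lines with the same number correlated at r = 0.48 over 21572 probes, but with 2 pairs the numbers are not taken to pair the lines, and no paralog probe passed the threshold with the block. The median over all probes tested was 0.05, and 0.10 with median normalization. The dim signal of Iqgap2 and of Coro2a in Ip6k1+/+ MEFs limits what their folds can show.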
